A study of Homo sapiens with 13 samples.

Results

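The genes described here are the D-type cyclins CCND1, CCND2 and CCND3, the cyclin-dependent kinases CDK4 and CDK6 that they switch on, the CDK inhibitors CDKN1B, CDKN1C, CDKN2A and CDKN2B, and RB1, the main substrate of these kinases. They were taken as the rows of the count table whose Ensembl identifiers map to these 10 symbols. The table held 43836 genes, and all 10 were among the 17092 genes with enough reads to be tested. Messenger RNA had been sequenced from hFOB 1.19, a line of human fetal osteoblasts, the cells that form bone. The line was immortalised with a temperature-sensitive large T antigen of the virus SV40, a protein known to bind the product of RB1, and every group shared this background. The culture temperature is not given in the sources used here.

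Libraries fell into 5 groups. The positive control (PC, n = 2) was grown with 10% fetal bovine serum (FBS) and the vehicle DMSO, and the negative control (NC, n = 2) with DMSO and no serum. Resveratrol (RES, n = 3) and peonidin-3-O-glucoside (POG, n = 3), a pigment of the anthocyanin class, were each given at 1 µg/ml to cells that had been kept without serum for a day. A group called DEG (n = 2) received a compound at the same dose. The labels did not spell DEG out, although their protocol named delphinidin-3-glucoside, another anthocyanin, beside the other 2 compounds. The methods did not describe the DEG cultures, so whether their medium held serum is not given, nor is the length of any treatment. A prefix in the labels, T1 for RES and DEG and T2 for POG, was not explained, and a difference between POG and the other compounds cannot be told apart from whatever the prefix marks. RES and POG were added to triplicate wells. Whether wells were plated on separate occasions, and whether the control and DEG libraries came from separate wells, is not given, so p-values measure only the spread between these libraries, which may be technical.

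Library totals ran from 38464619 to 51416358 counted reads. Levels are given as CPM, the read count divided by library size after scaling by edgeR's TMM method. A call means that edgeR's exact test over all 17092 genes gave a false discovery rate (FDR) below 0.05. Libraries of a group were compared by the mean over genes of their squared difference, in units of counting noise, which was 10.96 for the PC pair and 2.07 to 2.66 for the other 8 pairs, so the PC libraries stood apart from each other, and the PC levels of the 10 genes are given library by library. Of 9 osteoblast markers 7 passed the filter on low counts, with a summed level of 4751 to 5524 CPM that rested on the collagens COL1A1 and COL1A2 and on SPARC. Of the others, IBSP had 1 read in all libraries together and SP7 stood at 0.0629 to 0.148 CPM by group. BGLAP stood at 0.912 to 1.60 CPM and SPP1 at 1.24 to 2.16 CPM. Blood cell markers summed to at most 1.88 CPM and epithelial markers to at most 0.920 CPM. Endothelial markers summed to 35.3 to 59.7 CPM, nearly all from TEK, while CDH5 had 16 reads in all libraries together.

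D cyclins are made in response to growth signals and bind CDK4 or CDK6, and the active kinase then adds phosphate to the RB1 protein, which releases E2F factors that switch on the genes of DNA replication. INK4 inhibitors (CDKN2A, which encodes p16 and the unrelated protein ARF, and CDKN2B, which encodes p15) bind CDK4 and CDK6 directly. CIP/KIP inhibitors (CDKN1B, which encodes p27, and CDKN1C, which encodes p57) bind complexes of cyclins and kinases. In osteoblasts this switch separates the dividing precursor from the cell that stops dividing and lays down matrix, and much of it is known to act through protein turnover and phosphorylation, which messenger RNA counts do not measure.

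Stretches before the starts of CDK6, CDKN1B and CDKN2B are shown because these genes, a kinase and an inhibitor of each family, moved with serum and their stretches hold no annotated exon. Sequences came from a set of RefSeq promoters on build GRCh38.p14. The set available here held 7 of the 10 genes: CCND3, CDK4, CDK6, CDKN1B, CDKN2A, CDKN2B and RB1. Each is the 250 bases before the start, written 5′ to 3′ along the gene's strand, with every GC box (GGGCGG on either strand, so CCGCCC on the printed one) in capitals. CDK6 lies on the minus strand (chr7:92836574-92836823), CDKN1B on the plus strand (chr12:12717118-12717367) and CDKN2B on the minus strand (chr9:22009306-22009555). Starts are those of RefSeq, and the CDKN1B window lies inside the span that GENCODE v44 gives the gene (12685498 to 12722369). The set held 2 entries for CDK6, and only the first was used and searched.
CDK6: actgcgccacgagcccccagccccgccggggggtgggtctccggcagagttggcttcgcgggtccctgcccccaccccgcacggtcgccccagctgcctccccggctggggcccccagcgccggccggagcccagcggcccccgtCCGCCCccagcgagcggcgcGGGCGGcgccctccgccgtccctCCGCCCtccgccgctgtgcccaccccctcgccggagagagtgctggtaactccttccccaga
CDKN1B: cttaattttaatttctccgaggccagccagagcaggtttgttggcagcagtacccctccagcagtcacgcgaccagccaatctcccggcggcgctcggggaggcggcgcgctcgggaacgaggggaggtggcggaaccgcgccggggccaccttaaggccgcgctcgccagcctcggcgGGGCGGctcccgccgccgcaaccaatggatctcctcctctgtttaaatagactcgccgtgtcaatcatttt
CDKN2B: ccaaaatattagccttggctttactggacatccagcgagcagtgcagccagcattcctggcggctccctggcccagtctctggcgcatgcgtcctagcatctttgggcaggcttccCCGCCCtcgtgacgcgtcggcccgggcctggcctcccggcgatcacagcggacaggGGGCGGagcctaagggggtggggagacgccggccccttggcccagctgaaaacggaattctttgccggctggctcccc
CDK6 held 3 GC boxes, CDKN2B held 2 and CDKN1B held 1. Of 35116 promoter stretches of the same length, 42.6% held a GC box. Searched on both strands, the letters of a cyclic AMP response half-site (ACGTCA, in 7.1% of promoters), an AP-1 site (TGANTCA, 6.57%), an E2F site (TTTNNCGC, 5.92%) and a forkhead site (GTAAACA, 2.98%) were not in these 3 windows. GC content was 80% for CDK6, 64.4% for CDKN1B and 66.4% for CDKN2B.

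CCND1 (ENSG00000110092.3, hg38 chromosome 11, 69641156 to 69654474, plus strand) encodes cyclin D1, the D cyclin best known as a target of growth factor signalling. It was the member with the widest range of group levels. Its level was 323 and 332 CPM in PC, 150.2 and 150.4 CPM in NC, 164, 167 and 165 CPM in RES, 128, 128 and 127.5 CPM in POG, and 132 and 136 CPM in DEG. Every PC library stood far above all others, RES lay above NC, POG and DEG lay below NC, and no group overlapped another.

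With serum CCND1 rose 2.18-fold (log2 fold change 1.12, SE 0.0334, edgeR FDR 2.71e-198), a larger absolute change than that of 95.4% of tested genes. With RES it rose by 9.89% (log2 0.14, SE 0.0311, edgeR FDR 0.00223). It fell by 0.23 on the log2 scale with POG (SE 0.0314, edgeR FDR 2.10e-09) and fell by 0.17 with DEG (SE 0.0345, edgeR FDR 6.33e-04). Without NC replicate 1 the RES call was lost (FDR 0.0654), as was the DEG call without DEG replicate 1 (FDR 0.0616). These comparisons share the NC libraries, so their directions are not independent of each other.

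Ranked by mean, CCND1 was highest in PC, then in RES, NC, DEG and POG. All neighbours in this order differed except DEG and POG (log2 difference 0.07, 95% interval 0.00 to 0.13, edgeR FDR 0.487). LTO1, a gene on the opposite strand that shares 10.4% of the exon bases of CCND1, stood at 22.4 to 26.6 CPM and was not called with serum (−0.04, edgeR FDR 0.724).

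CCND2 (ENSG00000118971.7, chromosome 12, 4269771 to 4305353, plus strand) encodes cyclin D2. It rested on 38 to 73 reads in a library, the fewest of any member. A protein-coding gene model with no symbol shares 12.5% of its exon bases on the same strand in GENCODE v44. That model had no row in the count table, so whether it touched the counts of CCND2 cannot be checked here. The level of CCND2 was 0.769 and 1.42 CPM in PC, 1.03 and 1.11 in NC, 1.35, 1.27 and 1.23 in RES, 1.62, 1.41 and 1.14 in POG, and 1.89 and 1.25 in DEG. The libraries of RES, POG and DEG all lay above both NC libraries, while the 2 PC libraries lay on either side of them. It was called in 0 of the 10 comparisons by the exact test. The log2 difference from NC was 0.26 in RES (95% interval −0.30 to 0.83), 0.37 in POG (−0.18 to 0.93) and 0.55 in DEG (−0.06 to 1.15), so a change of moderate size was not detectable at this depth. Without PC replicate 2, CCND2 was called lower in PC than in POG (−0.85, edgeR FDR 0.0275) and than in DEG (−1.02, edgeR FDR 0.0131), and without DEG replicate 2 it was called lower in PC than in DEG (edgeR FDR 0.0467).

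CCND3 (ENSG00000112576.12, chromosome 6, 41934934 to 42050357, minus strand) encodes cyclin D3 and was the steadiest member. Its level was 79.0 and 81.7 CPM in PC, 78.0 and 80.8 in NC, 79.9, 83.5 and 82.1 in RES, 81.8, 78.6 and 80.3 in POG, and 79.3 and 78.4 in DEG. The groups overlapped throughout, apart from DEG, which lay below RES. It was called in 0 of the 10 comparisons, and its group means spanned 0.05 on the log2 scale. The 95% interval of its log2 difference between PC and NC ran from −0.07 to 0.10. With libraries scaled by plain totals it was called lower in PC than in RES (−0.10, edgeR FDR 0.0370), under a scaling that moved the median of all genes by −0.07.

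**Figure D1:**
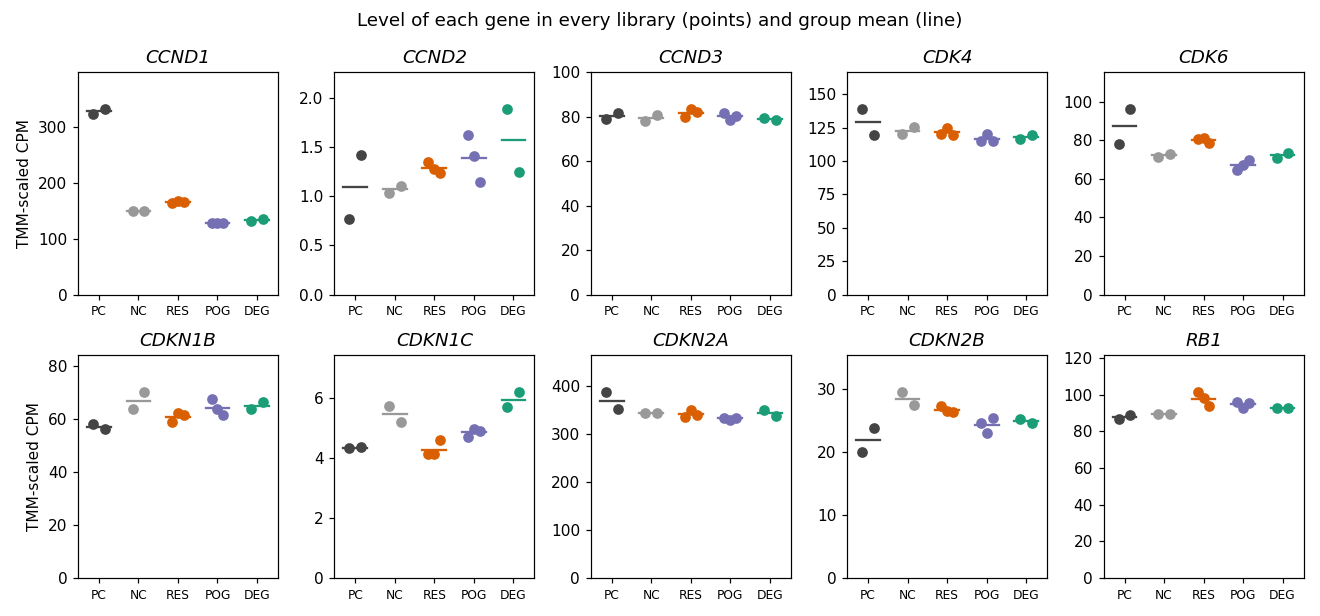
Level of each of the 10 genes, in TMM-scaled CPM on a linear axis from 0, for each of the 5 groups (PC and NC, controls with and without serum; RES, POG and DEG, compounds). Points are libraries and lines are group means; CCND1 stands at 323 and 332 CPM in PC against 127.5 to 167 CPM elsewhere, while the 3 other genes above 100 CPM in some library (CDK4, CDKN2A and RB1) move far less.

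Counts were divided by length to compare the D cyclins with each other. Per kilobase of all annotated exons, CCND1 made up 83.0% ± 0.134 of the D cyclin reads in PC (SD, n = 2) and 69.4% ± 0.5005 in NC (SD, n = 2). Its share was 70.7% ± 0.236 in RES (SD, n = 3), 65.6% ± 0.457 in POG (SD, n = 3) and 67.0% ± 0.672 in DEG (SD, n = 2). CCND3 took nearly all of the rest, from 16.8% in PC to 34.0% in POG, and CCND2 took 0.165% to 0.467%. The order of the groups was the same per kilobase of the longest transcript, but the share of CCND1 was then 69.6% in PC and 51.6% in NC, where CCND3 counts over 2394 bases in place of 5761. On that scale CCND3 took 48.2% in NC, 50.8% in DEG and 52.5% in POG. The share of CCND1 was 48.8% in DEG and 47.2% in POG, below that of CCND3, so which D cyclin leads there depends on the length used.

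**Figure D2:**
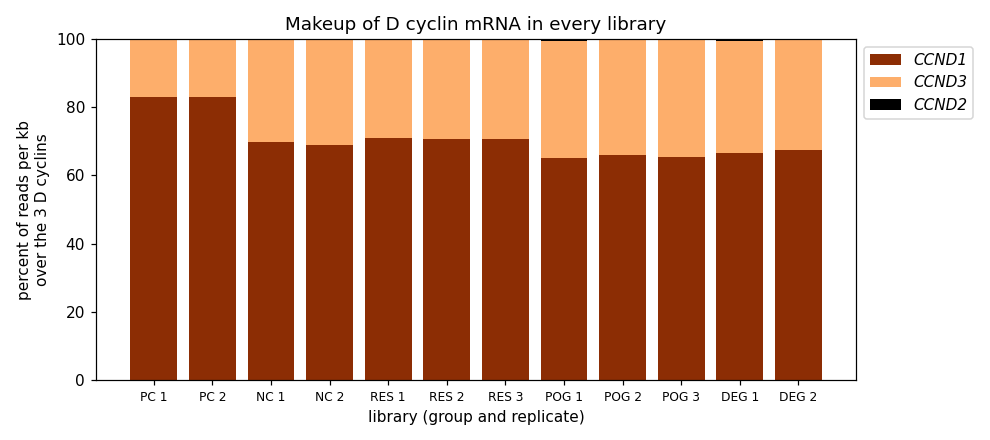
Percent of D cyclin reads per kilobase of exon that fell on CCND1, CCND3 and CCND2 in each of the 12 libraries, stacked to 100%. CCND1 takes 82.9% and 83.1% in the PC libraries and 65.1% to 71.0% in all others, and CCND2 is a thin line at the top.

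CDK4 (ENSG00000135446.16, chromosome 12, 57747727 to 57756013, minus strand) encodes a catalytic partner of D cyclins. Its level was 139 and 119.6 CPM in PC, 119.99 and 125 in NC, 120.4, 125 and 119.5 in RES, 115, 120.5 and 115 in POG, and 116 and 119.8 in DEG. PC replicate 1 stood above every other library, while PC replicate 2 lay among the rest.

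CDK4 was not called against NC with serum (log2 fold change 0.08, SE 0.0484, edgeR FDR 0.235), RES, POG or DEG. It was higher in PC than in POG (0.15, edgeR FDR 0.00457) and in DEG (0.13, edgeR FDR 0.0268). Both calls rested on PC replicate 1: without it the FDRs were 0.499 and 0.730, while without PC replicate 2 the differences were 0.25 and 0.24 and CDK4 was called higher in PC than in NC (0.19, edgeR FDR 6.69e-06). Both were also lost under plain library totals (FDR 0.146 and 0.277), and the DEG call without DEG replicate 1 (0.206) or 2 (0.0614) and with dispersions from PC and DEG alone (0.162). TSPAN31, on the opposite strand, shares 44.2% of the exon bases of CDK4, and without a stated strand setting reads there cannot be told apart. TSPAN31 stood at 13.5 to 17.9 CPM, and its value with serum was 0.19, just short of a call (edgeR FDR 0.0537).

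CDK6 (ENSG00000105810.9, chromosome 7, 92604921 to 92836573, minus strand) encodes the other kinase activated by D cyclins. Its level was 78.2 and 96.1 CPM in PC, 71.5 and 73.0 in NC, 80.7, 80.9 and 78.3 in RES, 64.7, 67.0 and 69.6 in POG, and 70.9 and 73.5 in DEG. PC and RES lay above NC, POG lay below it, and the DEG libraries lay on either side of the NC values.

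CDK6 rose by 20.5% with serum (log2 fold change 0.27, SE 0.0588, edgeR FDR 5.42e-05). The size of the rise rested on the PC libraries: without PC replicate 1 it was 0.42 (FDR 4.20e-18) and without PC replicate 2 it was 0.12 (FDR 0.0232). The value with RES was 10.7% above NC and missed the threshold (0.15, 95% interval 0.04 to 0.26, edgeR FDR 0.0713). It was called under plain library totals (FDR 0.0280), with no filter on low counts (FDR 0.0261) and with dispersions from RES and NC alone (FDR 9.64e-04). With POG the value was −0.11 (95% interval −0.22 to 0.01, edgeR FDR 0.219), called only with dispersions from POG and NC alone (FDR 0.0186), and with DEG it was −0.00 (95% interval −0.12 to 0.12).

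Ranked by mean, CDK6 was highest in PC, then RES, NC, DEG and POG, the order also seen for CCND1, and no neighbouring pair differed. PC and RES were closest to the threshold (0.12, edgeR FDR 0.0556), a pair called without PC replicate 1 (0.27, edgeR FDR 3.38e-09) and with no filter (0.0363). Without PC replicate 2 the difference was −0.03 (edgeR FDR 0.692), so PC then no longer ranked above RES. The endothelial marker TEK moved with CCND1 and CDK6, at 55.1 CPM in PC, 40.3 in NC, 53.4 in RES, 34.6 in POG and 36.1 in DEG by group mean. With serum TEK rose by 0.45 (edgeR FDR 4.84e-13) and KDR, at 1.42 and 1.40 CPM in PC and 0.646 and 0.629 in NC, rose by 1.14 (edgeR FDR 0.00463), while PECAM1 fell by 0.54 (edgeR FDR 0.0321). Of the 4 endothelial markers 3 passed the filter, their summed level was 56.5 to 59.7 CPM in PC, 42.3 to 44.1 in NC, 52.8 to 59.5 in RES, 35.3 to 37.3 in POG and 38.1 to 38.6 in DEG, and the defining marker CDH5 was at or near 0 in all groups. The part of these markers in the results of CCND1 and CDK6 was not tested.

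Per kilobase of exon CDK4 exceeded CDK6 6.71-fold ± 0.103 in NC (SD, n = 2), 6.02-fold ± 0.107 in RES (SD, n = 3), 6.89-fold ± 0.332 in POG (SD, n = 3) and 6.47-fold ± 0.0267 in DEG (SD, n = 2). In PC the ratio was 7.03 and 4.92 in the 2 libraries, which lie on either side of all groups but POG. Per kilobase of the longest transcript the NC ratio was 10.6, so only the comparison between groups can be read from it.

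CDKN1B (ENSG00000111276.10, chromosome 12, 12685498 to 12722369, plus strand) encodes p27, which holds starved cells before S phase. Its level was 57.9 and 56.0 CPM in PC, 63.7 and 70.1 in NC, 58.8, 62.1 and 61.5 in RES, 67.3, 63.8 and 61.6 in POG, and 63.7 and 66.4 in DEG. PC lay below every other library, and RES lay below both NC libraries.

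CDKN1B fell by 0.23 with serum (SE 0.0512, edgeR FDR 7.11e-05), and it fell by 0.14 with RES (SE 0.0466, edgeR FDR 0.0432). The RES call was weak: without NC replicate 2 the value was −0.07 (FDR 0.661), without RES replicates 1, 2 and 3 the FDR was 0.197, 0.0575 and 0.0787, and it was 0.0568 under edgeR's quasi-likelihood test, 0.0720 under DESeq2, 0.128 under plain totals and 0.0750 with no filter. POG (−0.06, 95% interval −0.15 to 0.04) and DEG (−0.04, −0.15 to 0.06) were not called. PC was also lower than POG (−0.17, edgeR FDR 0.00120) and DEG (−0.19, edgeR FDR 0.00131), the second lost without DEG replicate 2 (0.0517), and under plain totals it was called lower than RES (−0.16, FDR 0.00231). No neighbouring pair differed in its order of NC, DEG, POG, RES and PC.

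CDKN1C (ENSG00000129757.12, chromosome 11, 2883213 to 2885775, minus strand) encodes p57, an imprinted inhibitor of the same family. It rested on 184 to 244 reads in a library. Its level was 4.33 and 4.36 CPM in PC, 5.76 and 5.20 in NC, 4.13, 4.14 and 4.60 in RES, 4.71, 4.99 and 4.93 in POG, and 5.71 and 6.21 in DEG. PC and RES were low, POG was intermediate, and DEG and NC were high and overlapped.

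CDKN1C fell by 0.33 with serum (SE 0.127, edgeR FDR 0.0239) and fell by 0.35 with RES (SE 0.116, edgeR FDR 0.0276). Both calls depended on single libraries and on the tool. The serum call was lost without PC replicate 1 (FDR 0.123), PC replicate 2 (0.0905) or NC replicate 1 (0.223), under DESeq2 (0.0992), with no filter (0.0588) and with dispersions from PC and NC alone (0.0528). The RES call was lost without NC replicate 1 (0.334), NC replicate 2 (0.0652), RES replicate 1 (0.0971) or RES replicate 2 (0.0966), under DESeq2 (0.110) and with no filter (0.0802).

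The largest called difference among members between compounds was that of CDKN1C, which was 39.0% higher in DEG than in RES (log2 difference 0.47, SE 0.115, edgeR FDR 4.81e-04). DEG and POG differed by 0.29 (95% interval 0.06 to 0.52), which did not pass over all genes (edgeR FDR 0.241). PC was lower than DEG as well (−0.46, edgeR FDR 0.00114). No neighbouring pair differed in the order DEG, NC, POG, PC and RES.

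CDKN2A (ENSG00000147889.17, chromosome 9, 21967752 to 21995301, minus strand) was the most abundant member per length, at 88.5 ± 0.0207 CPM per kilobase of exon in NC (SD, n = 2) against 39.6 ± 1.19 for CDK4 and 31.6 ± 0.0249 for CCND1 on the same scale. Counts per gene do not separate its p16 and ARF transcripts, and CDKN2B-AS1, which shares 15.3% of its exon bases on the opposite strand, was not analysed here. Its level was 387 and 351 CPM in PC, 344 and 344 in NC, 336, 350.4 and 340.1 in RES, 333, 329.8 and 334 in POG, and 351 and 337 in DEG. PC replicate 1 stood above all other libraries, and PC replicate 2 lay within 1 CPM of the highest RES and DEG libraries.

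CDKN2A was called higher with serum (0.10, SE 0.0361, edgeR FDR 0.0329). The call was lost without PC replicate 1 (0.04, FDR 0.397), NC replicate 1 (FDR 0.137) or NC replicate 2 (FDR 0.111), under plain library totals (FDR 0.246), with no filter (FDR 0.0528) and with dispersions from PC and NC alone (FDR 0.223). The intervals of the log2 differences from NC were −0.07 to 0.06 for RES, −0.12 to 0.02 for POG and −0.07 to 0.07 for DEG, and none was called. PC was called higher than RES (0.11, edgeR FDR 0.00928), POG (0.15, edgeR FDR 1.88e-04) and DEG (0.10, edgeR FDR 0.0313). Without PC replicate 2 the differences from NC, RES and DEG were 0.18, 0.18 and 0.18. The POG value was 0.08 without PC replicate 1 (FDR 0.0140) and 0.09 under plain totals (FDR 0.0446). The calls with RES and DEG were lost without PC replicate 1 (FDR 0.272 and 0.411), under plain totals (0.405 and 0.441) and with dispersions from each pair of groups alone (0.0689 and 0.218), the RES call without RES replicate 1 (0.0547), and the DEG call without DEG replicate 2 (0.306) and with no filter (0.0549). The remaining groups stood in the order NC, DEG, RES and POG, and no neighbours among them differed.

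CDKN2B (ENSG00000147883.10, chromosome 9, 22002903 to 22009305, minus strand), a neighbour of CDKN2A known as a target of TGF-beta, moved the other way. Its level was 20.03 and 23.9 CPM in PC, 29.5 and 27.4 in NC, 27.3, 26.5 and 26.4 in RES, 24.6, 23.0 and 25.3 in POG, and 25.2 and 24.6 in DEG. NC was highest, and all libraries of the other 4 groups lay below both NC libraries.

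CDKN2B fell by 0.38 with serum (SE 0.0715, edgeR FDR 1.33e-06) and fell by 0.23 with POG (SE 0.0646, edgeR FDR 0.00647). Without PC replicate 1 the serum value was −0.25 (FDR 0.00510). The POG call was lost without NC replicate 1 (FDR 0.224) or POG replicate 2 (FDR 0.0630). The value was −0.19 with DEG (95% interval −0.34 to −0.05, edgeR FDR 0.0725), called with dispersions from DEG and NC alone (FDR 0.0192), and −0.09 with RES (−0.22 to 0.04, edgeR FDR 0.434). PC was lower than RES (−0.29, edgeR FDR 6.77e-05) and DEG (−0.19, edgeR FDR 0.0312). Without PC replicate 1 the FDR was 0.0748 for RES and 0.646 for DEG, and the DEG call was also lost under DESeq2 (0.0740), with dispersions from these groups alone (0.106) and without either DEG library (0.163 and 0.0807). Without PC replicate 2 the DEG difference was −0.31. The difference of PC and POG (−0.15, edgeR FDR 0.0512) was called without PC replicate 2 (5.80e-04) or POG replicate 2 (0.0252), under plain totals (0.00351) and with a mean of at least 1 CPM as the filter (0.0493). Per kilobase of exon CDKN2A exceeded CDKN2B 12.5-fold ± 0.636 in NC (SD, n = 2), and 19.9-fold and 15.2-fold in the 2 PC libraries.

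RB1 (ENSG00000139687.13, chromosome 13, 48303744 to 48599436, plus strand) encodes the pocket protein that holds E2F factors. Its level was 86.8 and 88.9 CPM in PC, 89.5 and 89.5 in NC, 101, 98.3 and 93.7 in RES, 96.2, 92.6 and 95.4 in POG, and 92.5 and 92.5 in DEG. All libraries given a compound lay above NC, and PC lay just below it.

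RB1 rose by 9.28% with RES (0.13 on the log2 scale, SE 0.0381, edgeR FDR 0.0219). The call was lost without NC replicate 1 (FDR 0.173), NC replicate 2 (0.159), RES replicate 1 (0.152) or RES replicate 2 (0.0761). POG (0.08, 95% interval 0.00 to 0.16, edgeR FDR 0.186) and DEG (0.05, −0.04 to 0.13) were not called, although POG was with dispersions from POG and NC alone (FDR 0.0467). Serum gave −0.03 (95% interval −0.11 to 0.06, edgeR FDR 0.690). PC was lower than RES (−0.15, edgeR FDR 5.15e-04) and POG (−0.11, edgeR FDR 0.0183), the second lost without PC replicate 1 (0.0744), POG replicate 1 (0.0775) or POG replicate 3 (0.0598) and with dispersions from these groups alone (0.0563). Under plain totals the POG difference was −0.18, and PC was called lower than DEG as well (−0.14, FDR 0.00801). No neighbours differed in its order of RES, POG, DEG, NC and PC.

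Serum changed 6 of the 10 genes, 3 up (CCND1, CDK6 and CDKN2A) and 3 down (CDKN1B, CDKN1C and CDKN2B). The dispersions behind these calls came from all 12 libraries, although the PC pair differed more than any other pair of replicates. With dispersions from PC and NC alone, CDKN1C (edgeR FDR 0.0528) and CDKN2A (0.223) lost the call. All genes called then numbered 5926 in place of 7245. Between PC and NC 42.4% of all tested genes were called, 21.4% higher and 20.9% lower, so a count of 6 in 10 is not far above the background, and the members' median absolute log2 fold change was 0.17 against 0.21 over all tested genes. The libraries of PC and NC did not overlap for 7 members, as for 65.6% of tested genes.

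RES changed 4 members, CCND1 and RB1 up and CDKN1B and CDKN1C down, where 11.2% of tested genes were called (4.94% higher and 6.21% lower). POG changed 2, CCND1 and CDKN2B, both down, where 14.5% were called (5.93% higher and 8.57% lower). DEG changed 1, CCND1, down, where 9.63% were called (3.52% higher and 6.11% lower). The libraries did not overlap for 7 members with RES, 7 with POG and 5 with DEG, beside 40.9%, 44.1% and 51.8% of tested genes. The median absolute log2 fold change of the members was 0.13 with RES, 0.09 with POG and 0.05 with DEG, against 0.10, 0.11 and 0.10 over all tested genes.

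**Figure D3:**
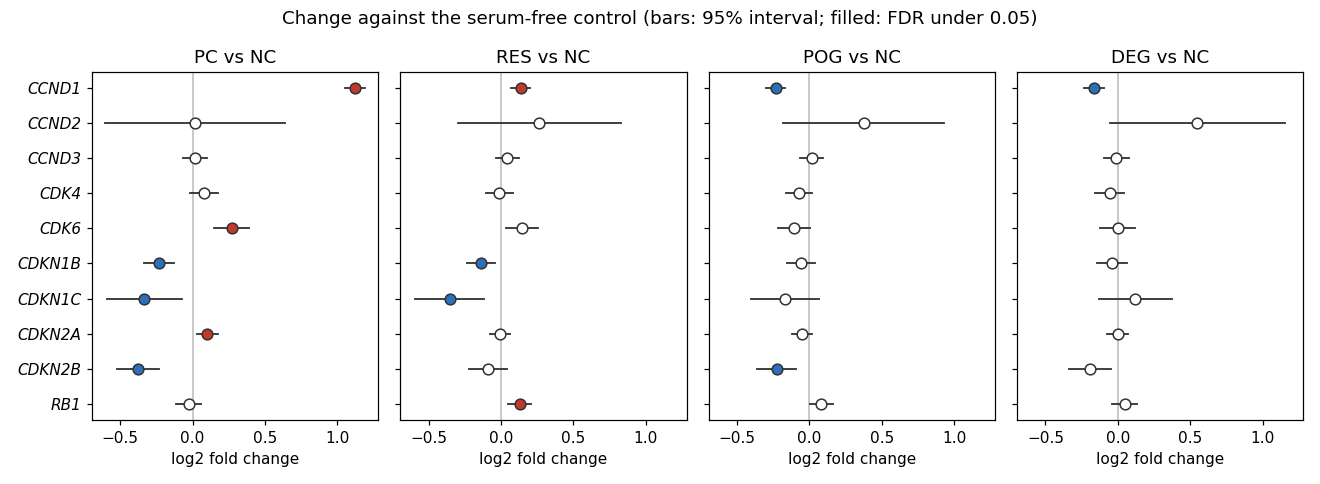
Log2 fold change of each of the 10 genes against NC, with serum (PC) and with each compound, on a shared axis; points are estimates, bars are 95% intervals from edgeR's quasi-likelihood fit, and filled points passed an FDR under 0.05 (red higher, blue lower). CCND1 with serum, at 1.12, lies far from the rest, and the widest bars are those of CCND2.

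Direct comparisons between the compounds were made for 3 pairs at the same dose. NC was not a compared group in them, but the filter, the scaling and the dispersions came from all 12 libraries. POG differed from RES in 2 members, where 27.9% of tested genes were called. CCND1 was 0.774 times its RES level in POG (log2 difference −0.37, SE 0.0278, edgeR FDR 2.79e-30) and CDK6 was 0.839 times (−0.25, SE 0.0481, edgeR FDR 5.66e-06). Both kept the call under every alternative setting and without any single library. CDKN2B was −0.14 in POG against RES (95% interval −0.25 to −0.02, edgeR FDR 0.0664), a value called with a mean of at least 1 CPM as the filter (FDR 0.0474) and with dispersions from these groups alone (FDR 0.0237).

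DEG differed from RES in 3 members, where 21.2% of tested genes were called: CCND1 was 0.811 times its RES level (−0.30, SE 0.0313, edgeR FDR 1.38e-15), CDKN1C was higher as given above, and CDK6 was 0.902 times (−0.15, SE 0.0542, edgeR FDR 0.0427). The CDK6 call was lost without any one of the RES or DEG libraries (FDR 0.0564 to 0.329), under edgeR's quasi-likelihood test (0.0530) and under DESeq2 (0.0826). CDKN1B, at 0.10 in DEG against RES (95% interval 0.00 to 0.19, edgeR FDR 0.148), was called with dispersions from these groups alone (0.0482).

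DEG and POG differed in 0 members by the exact test, where 1.05% of tested genes were called. At an unadjusted p under 0.05 in edgeR's exact test there was 1, CDKN1C (p = 0.0107), and DESeq2 and the quasi-likelihood test called 0 as well. The 95% intervals of the differences were −0.01 to 0.22 for CDK6, −0.10 to 0.05 for CCND3, −0.08 to 0.11 for CDK4 and −0.11 to 0.04 for RB1, which bounds but does not exclude small differences. For CCND2 the interval ran from −0.35 to 0.70.

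**Figure D4:**
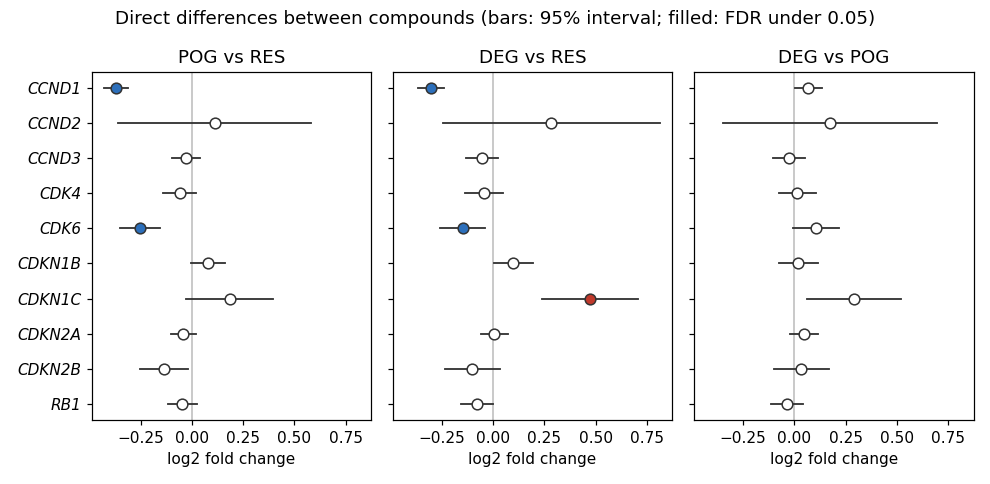
Log2 difference of each of the 10 genes between compounds at the same dose (POG against RES, DEG against RES, DEG against POG), on a shared axis, with 95% intervals; filled points passed an FDR under 0.05 (red higher, blue lower). CCND1 lies at −0.37 and −0.30 in the comparisons with RES, and no point is filled between DEG and POG.

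Against the serum-fed cells, 4 members differed in RES, 6 in POG and 7 in DEG, where 45.7%, 47.9% and 43.4% of tested genes were called. CCND1 was higher in PC by 0.99 against RES (SE 0.0300, edgeR FDR 3.76e-195), by 1.36 against POG and by 1.29 against DEG (edgeR FDR 1.40e-257). The FDR against POG was too small to be stored as a number above 0.

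Other genes of the pathway were read from lists. Beside the list counts below, 42.4% of all tested genes were called with serum, 21.4% higher and 20.9% lower. With RES 11.2% were called, with POG 14.5% and with DEG 9.63%. Among 8 other G1/S cyclins and kinases, serum raised 5 and lowered 1. MNAT1 and CCNH, which form the CDK-activating kinase with CDK7, rose by 0.39 (SE 0.0606, edgeR FDR 3.27e-09) and 0.25 (SE 0.0582, edgeR FDR 9.97e-05). RES lowered 2 of the 8, CCNH (−0.16) and CCNA2 (−0.13), the gene of cyclin A2. POG and DEG each raised 2, CCNE2 (0.24 and 0.23), which encodes a cyclin E, and CCNA2 (0.11 and 0.13). CCNA2 was higher than in RES by 0.24 in POG (edgeR FDR 2.73e-12) and by 0.26 in DEG (edgeR FDR 1.90e-11). With no filter its calls against NC with POG (0.0609) and DEG (0.0597) were lost. The CCNA2 calls against NC were lost without NC replicate 1 (FDR 0.0848 for RES, 0.171 for POG and 0.127 for DEG) or NC replicate 2 (0.106, 0.140 and 0.0983), and those with POG and DEG also without POG replicate 1 (0.0669) or 3 (0.120) and without DEG replicate 1 (0.0779) or 2 (0.177). Also lost were the call of CCNH with RES without NC replicate 1 (0.454) and in 8 other alternatives, and the call of CCNE2 with DEG without NC replicate 1 (0.137) or DEG replicate 2 (0.183).

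Of the 3 other CDK inhibitors, serum lowered 2. CDKN1A, which encodes p21 and is known as a p53 target, fell from a mean of 668 to 484 CPM (−0.46, SE 0.0294, edgeR FDR 1.24e-36), and CDKN2C, which encodes p18, fell by 0.22. RES lowered the same 2 genes, CDKN2C by −0.21 (edgeR FDR 1.47e-05) and CDKN1A by −0.09 (edgeR FDR 0.0388). With POG the INK4 gene CDKN2D rose by 0.19 (edgeR FDR 0.0338), and with DEG 0 of the 3 passed. All 3 were higher in POG and in DEG than in RES, where 13.7% and 10.3% of tested genes were called higher, with CDKN2D at 0.32 and 0.26. DEG and POG differed in CDKN2C (−0.16, edgeR FDR 0.0176), a call lost with no filter (0.0589). Under plain totals (0.179) and with no filter (0.159) the RES call of CDKN1A was lost. The POG call of CDKN2D was lost under the quasi-likelihood test (0.0521), under DESeq2 (0.100) and with no filter (0.0662). The RES call of CDKN1A was lost without any one of the RES or NC libraries (FDR 0.0650 to 0.296), the POG call of CDKN2D without POG replicate 1 (0.0658) or 2 (0.148) or either NC library (0.233 and 0.149), the call of CDKN2D between DEG and RES without DEG replicate 2 (0.0505), and the CDKN2C difference without either DEG library (0.345 and 0.187) or POG replicate 1 (0.0816) or 2 (0.131).

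Among 12 pocket proteins and E2F factors, serum raised 2 and lowered 6. The repressor E2F8 fell by 0.31 (edgeR FDR 9.42e-05), and E2F5, at 3.06 CPM in NC, rose by 0.51 (SE 0.168, edgeR FDR 0.00729). RES changed 0 of the 12 by the exact test. POG raised E2F8 (0.29, edgeR FDR 9.29e-05) and its relative E2F7 (0.16), and DEG raised E2F7 (0.15, edgeR FDR 0.0210). Of 12 replication genes that E2F factors are known to drive, serum raised 1 (RRM2, 0.13) and lowered 2, among them the licensing factor CDT1 (−0.17, edgeR FDR 1.14e-04). RES raised 3, led by the helicase subunits MCM5 (0.13) and MCM3 (0.12), and lowered 1. POG raised 3 and DEG raised 2, with CDT1 at 0.21 and 0.20. Calls lost were those of E2F5 with serum without PC replicate 1 (FDR 0.0870) or NC replicate 1 (0.115) and under DESeq2 (0.05001), E2F7 with POG without NC replicate 1 (0.0857), E2F7 with DEG without any one of the DEG or NC libraries (0.0961 to 0.196), MCM5 without NC replicate 1 (0.144), MCM3 without NC replicate 1 (0.0735) or 2 (0.154) or RES replicate 1 (0.0654) or 3 (0.0522), and RRM2 with serum with dispersions from PC and NC alone (0.0805). The markers of dividing cells did not move as a block with serum: CCNB1 rose by 0.46, BUB1 rose by 0.27, and MKI67 was called lower (−0.12, edgeR FDR 0.0416), at 735 and 885 CPM in PC against 892 and 869 in NC. PC replicate 2 lay within the NC range for MKI67, so its lower mean rested on PC replicate 1. Their summed level was 1810 to 1996 CPM in PC, 1880 to 1893 in NC, 1721 to 1769 in RES, 2011 to 2032 in POG and 1977 to 1978 in DEG. A change in the number of cells in each phase and a change of messenger RNA per cell cannot be told apart in bulk RNA.

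Of 6 genes on a list named for the turnover of D cyclins and p27, 0 were called with serum by the exact test. Whether each of them acts on these proteins in these cells was not tested. RES raised GSK3B (0.12, edgeR FDR 0.0383), whose product marks cyclin D1 for destruction, and DEG raised FBXW7 (0.20, edgeR FDR 0.0244). Both calls were lost with no filter (FDR 0.0801 and 0.0619), and that of FBXW7 under DESeq2 (0.0680). Either call was lost without any one library of its groups, with FDRs of 0.0657 to 0.295 for GSK3B and 0.0553 to 0.277 for FBXW7. CKS1B, a cofactor in the destruction of p27, was higher in POG (0.23) and DEG (0.21) than in RES.

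The largest changes of the pathway lists lay among 7 mitogen and FOXO inputs, factors known to act on D cyclin and p27 genes. Serum raised 3 and lowered 3. The AP-1 subunit FOSL1 rose from 142.9 to 389 CPM (1.45, SE 0.0374, edgeR FDR 2.98e-258) and MYC from 46.6 to 94.0 CPM (1.01, SE 0.0497, edgeR FDR 2.59e-85). The lowered genes FOS, EGR1 and FOXO3 had group means of 9.80, 95.8 and 81.4 CPM in NC and 6.02, 87.0 and 69.8 in PC. RES lowered 3, among them EGR1 (−0.23, edgeR FDR 4.48e-06) and JUN (−0.23, edgeR FDR 3.68e-08). POG raised EGR1, an early response factor, from 95.8 to 157 CPM (0.71, edgeR FDR 4.23e-64) and lowered JUN (−0.32). DEG gave the same pair of calls at 0.42 and −0.32. Of the genes on these pathway lists EGR1 differed most between compounds, 0.94 higher in POG than in RES and −0.29 in DEG against POG (edgeR FDR 1.62e-09).

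**Figure D5:**
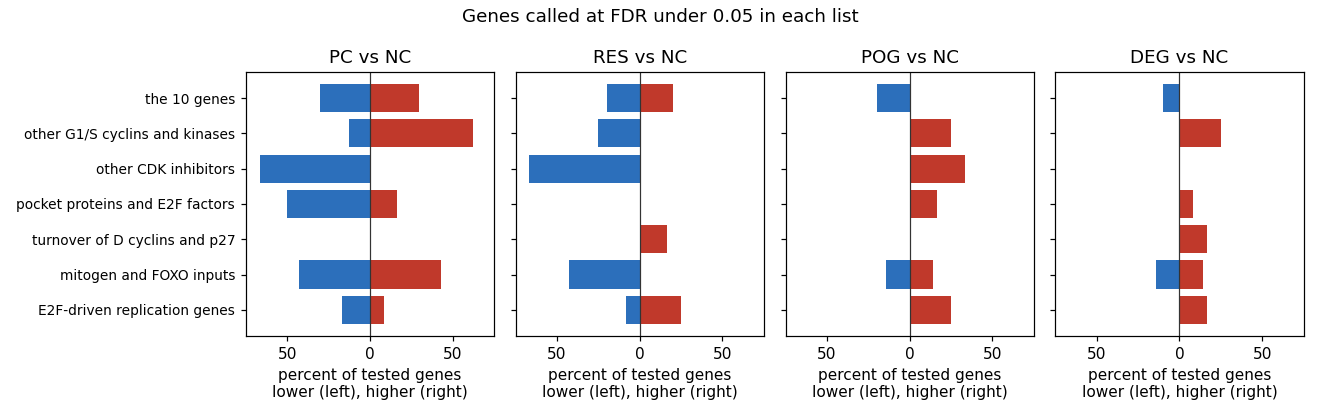
Percent of the tested genes of each list that were called higher (right, red) or lower (left, blue) against NC at an FDR under 0.05, for serum (PC) and each compound. With serum 5 of the 8 other G1/S genes were higher and 6 of the 12 pocket and E2F genes lower, beside 42.4% of all tested genes called in either direction; lists hold 3 to 12 genes, so a single gene moves a bar by many points.

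The genes most like CCND1 over the 12 libraries, among 9911 genes that averaged 10 CPM or more, were RAI14 (Pearson r of log2 CPM 0.994, Spearman rho 0.853), CXCL8 (0.993 and 0.923) and SPOCD1 (0.993 and 0.839). All 3 were highest in PC, and without the PC libraries r was 0.930, 0.955 and 0.921 (n = 10). CXCL8 stood at 1733 CPM in PC, 873 in NC, 904 in RES, 686 in POG and 757 in DEG by group mean, the group order of CCND1. For CCND2 they were KDM7A (0.892), DSTYK (0.869) and MYO9A (0.866), and 0.840, 0.759 and 0.917 without PC, over libraries where CCND2 itself had 38 to 73 reads. All libraries share one scaling, and the correlations are descriptions only.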

How the data were processed

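Messenger RNA of 12 hFOB 1.19 libraries was analysed, and a 13th labelled sample, DEG replicate 3, was not analysed here. The authors deposited raw counts of reads per gene, not normalized. Per their methods, libraries were made from polyA-selected RNA with a kit that selects strand, reads were checked with FastQC, aligned to hg38 with STAR (BWA MEM was named too) and counted on Ensembl genes with featureCounts. Program versions, the strand setting, the release of the gene annotation and how multi-mapped reads were handled are not given in the sources used here. Symbols were matched for 43214 of 43836 genes. Gene positions, exon lengths and overlaps came from GENCODE v44 on hg38.

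Genes were filtered with filterByExpr by group, and the 17092 kept held 99.97% of the reads. They were tested in R 4.3.3 with edgeR's exact test (version 4.0.16 here), a test the authors' methods also name, after TMM scaling, with dispersions from all 12 libraries (common coefficient of variation 3.21%) and adjustment by Benjamini and Hochberg over all tested genes. Standard errors and 95% intervals came from edgeR's quasi-likelihood fit. All pairs of the 5 groups were compared, 10 in all. The test was checked on simulated counts, with 100 genes changed by 0.5 on the log2 scale and 100 changed by 1. In the setting of PC against NC it recovered 66 and 78 of them, and in that of RES against NC 76 and 85. In each setting 13 unchanged genes were called. Alternatives were the quasi-likelihood test, DESeq2 1.42.0, DESeq2 size factors or plain totals in the exact test, no filter, a filter at a mean of 1 CPM, dispersions from the 2 groups tested, an FDR of 0.01, and leaving out each library.

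All 10 members were described in every library. From each pathway list the 2 called genes with the largest absolute log2 fold change in a comparison, with a mean of at least 1 CPM, could be named, and markers were named as checks. The mitogen and FOXO inputs lowered with serum were given by group mean only and are not among the named calls counted below. The members and lists were chosen with earlier results of these data known. The alternatives for named genes of the pathway lists were added after seeing the data. Replicate numbers follow accession order and only name libraries.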

Additional observations from a re-analysis of the deposited data

How the results depend on the processing

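Of 100 member results (10 genes in 10 comparisons), 35 were called. Under the alternatives, 365 of 443 values of called results kept the call and the direction, 78 lost the call and 0 changed sign. Of 835 values of uncalled results 23 gained a call. Members called with RES against NC numbered 2 under DESeq2 and 1 at an FDR under 0.01, and 1 to 3 when each library was left out. With POG against NC they numbered 4 with dispersions from those groups alone, and 1 to 2 when each library was left out. With DEG against NC they numbered 2 with such dispersions and 0 to 1 when each library was left out. Between PC and DEG they numbered 4 with such dispersions, 4 at an FDR under 0.01, and 4 to 8 when each library was left out. The other comparisons kept counts within 1.5 times. Of 95 calls of named genes from the pathway lists, 66 were kept throughout, 120 of 1217 values lost the call and 0 changed sign. The cause of lost calls was not tested, beyond that fewer libraries were used when one was left out. A lone library was then assumed to vary like the other groups.

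Plain library totals moved the median log2 fold change of all genes by at most 0.07 and moved the balance of directions. Genes called higher numbered 844 of 1906 for RES against NC and 1236 of 1930 under plain totals, 1014 of 2478 and 1498 of 2677 for POG, and 602 of 1646 and 843 of 1711 for DEG. For PC they numbered 3970 of 7818 and 2797 of 8046 against RES, 4128 of 8195 and 3113 of 8480 against POG, and 3812 of 7426 and 2879 of 7636 against DEG. Counts of all genes called moved by over 1.5 times as follows. DEG against POG gave 179, then 103 under the quasi-likelihood test, 116 with no filter, 838 with dispersions from those groups alone, 78 at an FDR under 0.01 and 32 to 100 without 1 library. DEG against NC gave 1646, then 2573 with such dispersions, 975 at that FDR and 850 to 931 without 1 library of DEG or NC. At that FDR RES and POG against NC and DEG against RES gave 1124, 1532 and 2404. Without NC replicate 1 or 2, RES gave 881 and 937 and POG 1362 and 1364, and without DEG replicate 1 or 2, DEG against RES gave 2068 and 2208 in place of 3616. No paired analysis was possible because the labels give no replicate numbers. With 38 to 73 reads a library, depth limited what could be detected for CCND2.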
